A study of Danio rerio with 7 samples.

Results

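The genes described are 7 zebrafish genes of the YAP pathway: the CCN genes ctgfa, ctgfb and cyr61, the angiomotin genes amotl2a and amotl2b, and the coactivator genes yap1 and wwtr1. They were found by name among the 33827 entries of the deposited table. The set was selected on values of these same libraries. Ctgfa had already been seen to stand at 11.6 and 11.8 FPKM (fragments per kilobase, relative to library size) with the ctr9 morpholino in DMSO against 2.25 and 2.72 in uninjected cells, and the other 6 genes are known members of its pathway, whose levels were known too. Levels and differences of the 7 genes are therefore given as descriptions, with no p-value. The members were part of the fit of all genes, and how many of them it called is printed only beside the share of all genes called.

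YAP, encoded by yap1, and its paralogue TAZ, encoded by wwtr1, are transcriptional coactivators with no DNA-binding domain of their own. They act through TEAD transcription factors, and the Lats kinases of the Hippo pathway hold them in the cytoplasm by phosphorylation. CTGF and CYR61, secreted matricellular proteins of the CCN family, and AMOTL2, an angiomotin that binds and restrains YAP, are among the target genes most often read as a sign of YAP activity in mammalian cells. In zebrafish, yap1 and wwtr1 act together in extension of the body axis, and ctgfa is known as a gene of the notochord and floor plate.

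RNA was sequenced from sox10-positive cells sorted from dissociated Danio rerio embryos, a gate meant to hold neural crest and otic cells. Embryos were kept in DMSO or in 32 µM progesterone from 50% epiboly to 15 somites. The values cover 6 libraries in 3 groups of 2: uninjected embryos in DMSO, ctr9 morpholino embryos in DMSO, and ctr9 morpholino embryos in progesterone. Morpholinos are antisense oligomers that bind a chosen RNA, and Ctr9 belongs to the PAF1 complex of transcription elongation. The injected groups are called DMSO morphants and progesterone morphants. The uninjected columns are named by 5 ng and 10 ng, the others by experiment 1 and 2. No control morpholino is among the samples used here, so injection and loss of ctr9 cannot be told apart, and the uninjected progesterone sample was not analysed here. Whether the paired libraries of a group are separate clutches is not stated, so p-values rest on library spread that may be technical.

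Sequencing depth is unknown. The progesterone library of experiment 2 stood apart, with a summed FPKM of 218077 where the other 5 had 356240 to 366907. Ctr9 mRNA itself was highest in the DMSO morphants, at 42.2 and 36.7 FPKM, with 26.2 and 20.6 in progesterone morphants and 16.8 and 19.95 in the uninjected pair. Morpholinos act on translation or splicing and can leave the mRNA in place, so its level is no check of the labels. The median of the 13155 tested genes (mean FPKM of at least 1) had a log2 fold change of -0.07 for the morpholino, -0.58 for progesterone and -0.67 for both. Values were therefore also read after median-ratio scaling, which brought these medians to 0.01, -0.08 and -0.10. Sox10 itself stood between 60.0 and 191.1 FPKM and tfap2a, another neural crest gene, between 56.7 and 149.4, while the early crest gene foxd3 was at most 0.659 in any library. A list of neural crest markers, with 17 of 20 entries tested, summed to 1054 and 1182 FPKM in uninjected cells. It summed to 973 and 775 in DMSO morphants and to 1415 and 536 in progesterone. After scaling these sums were 899 and 921, then 801 and 724, then 1569 and 946, so the progesterone libraries were the highest. The genes of the list differed in direction. Pax7b had 20.5 and 37.7 FPKM, then 6.95 and 2.16, then 2.40 and 2.63, and pax7a and twist1a were also lower in DMSO morphants. Sox9a had 28.7 and 22.9, then 53.5 and 32.0, then 26.4 and 12.1. In sorted bulk samples, more cells of a type and more RNA per cell cannot be told apart.

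Of the CCN genes, ctgfa (ENSDARG00000042934) was the lowest detected member in uninjected cells, at 2.25 and 2.72 FPKM. DMSO morphants had 11.6 and 11.8 FPKM. Progesterone morphants had 4.04 and 5.78 FPKM. As deposited, the 3 groups did not overlap, in the order uninjected (2.48 ± 0.34, SD, n = 2), morpholino with progesterone (4.91 ± 1.22) and morpholino in DMSO (11.7 ± 0.19). The mean was 4.71 times that of uninjected cells in DMSO morphants and 1.98 times in progesterone morphants. After scaling, the progesterone libraries stood at 4.48 and 10.2 and overlapped the DMSO ones at 9.52 and 11.1, while the uninjected libraries, at 1.92 and 2.12, were still below all 4. Ranked among all tested genes, ctgfa lay at the 23.9th and 26.7th percentile of its library in uninjected cells, at the 70.5th and 74.4th in DMSO morphants, and at the 47.8th and 70.1st in progesterone.

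Cyr61 (ENSDARG00000023062), another CCN gene and classic YAP target, did not share that pattern. It stood at 10.6 and 10.5 FPKM in uninjected cells, at 14.4 and 8.63 in DMSO morphants, and at 21.7 and 10.7 in progesterone. The morpholino DMSO libraries lay on either side of the uninjected pair, and the difference between those groups was 0.08 ± 0.44 on the log2 scale (estimate ± SE). Only after scaling did both progesterone libraries, at 24.1 and 18.9, lie above the other 4, which ran from 8.06 to 11.9. The ratio of cyr61 to ctgfa within a library, which no scaling touches, was 4.73 and 3.84 in uninjected cells, 1.25 and 0.729 in DMSO morphants, and 5.38 and 1.86 in progesterone. Ctgfb (ENSDARG00000070586), the second zebrafish ctgf gene, was listed at 0 in all 6 libraries, as were 27.4% of all entries, and was not tested.

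**Figure D1:**
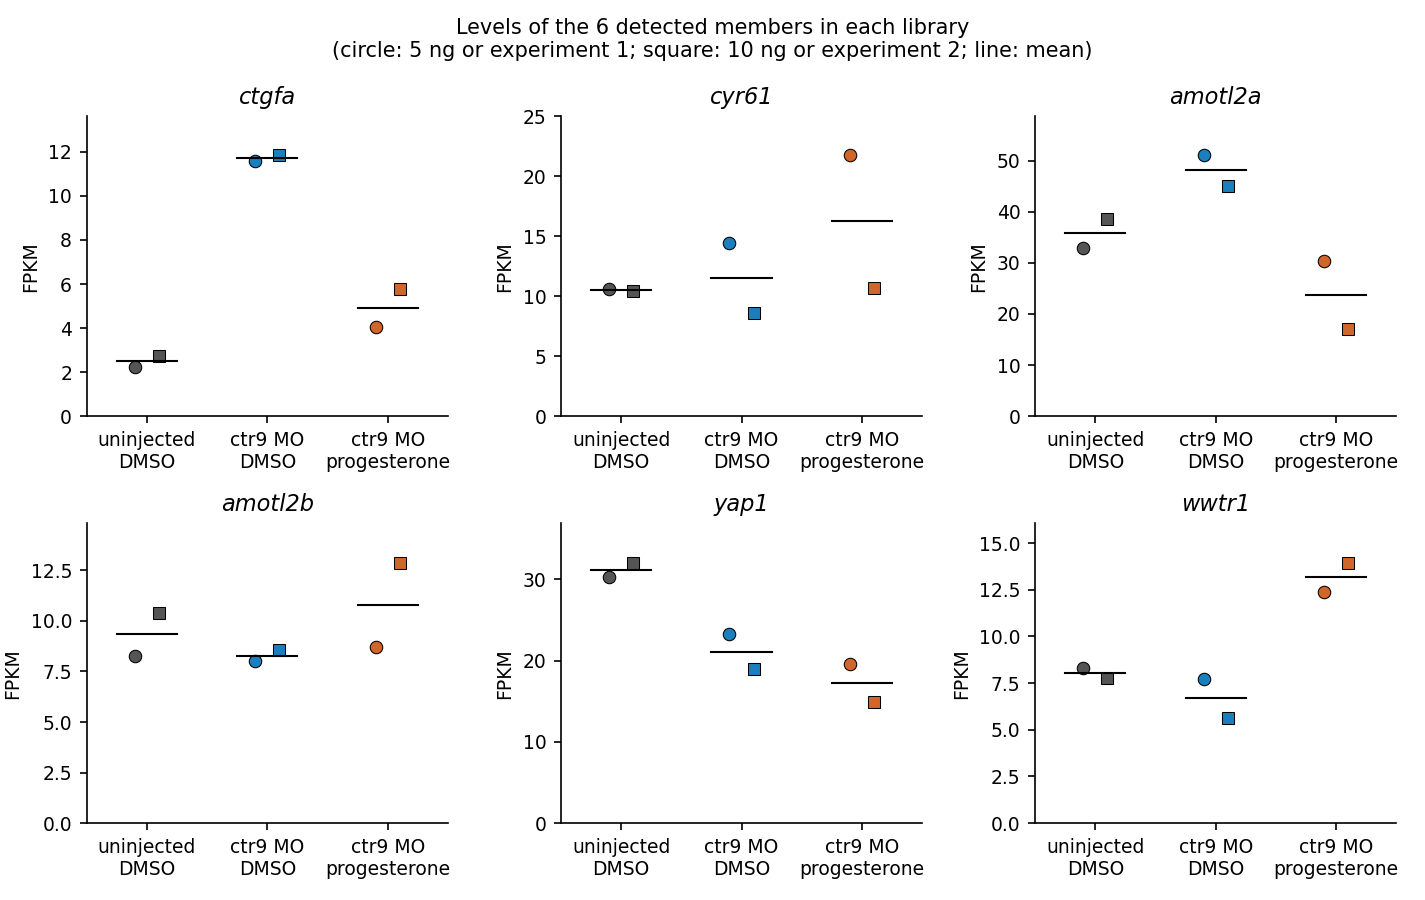
FPKM (vertical axes, from 0) of the 6 members with a mean of at least 1, for each of the 6 libraries in 3 groups; lines are means of 2 libraries. The ctgfa libraries in DMSO morphants sit at 11.6 and 11.8, above the other 4, and the wwtr1 libraries with progesterone sit at 12.4 and 14.0, above the other 4.

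The angiomotin genes amotl2a (ENSDARG00000061923) and amotl2b (ENSDARG00000061948) parted from each other. Amotl2a was the highest of the 7 genes in every group. It stood at 33.0 and 38.6 FPKM in uninjected cells, at 51.1 and 45.2 in DMSO morphants, and at 30.4 and 17.0 in progesterone. The morpholino DMSO libraries were the highest 2 of 6, and remained so after scaling, at 42.0 and 42.2 against 28.1 to 33.7 in the other 4. Amotl2b stood at 8.28 and 10.4 FPKM in uninjected cells, at 8.0 and 8.55 in DMSO morphants, and at 8.72 and 12.9 in progesterone. The spread of amotl2b over the 6 libraries was 1.61-fold from lowest to highest, the narrowest of the 6 detected members, and its morpholino DMSO and uninjected libraries overlapped. The amotl2a to amotl2b ratio was 3.98 and 3.71 in uninjected cells, 6.39 and 5.28 in DMSO morphants, and 3.49 and 1.32 in progesterone, so that these groups did not overlap.

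The coactivator yap1 (ENSDARG00000068401) was most abundant in uninjected cells, at 30.3 and 32.1 FPKM. It stood at 23.3 and 18.9 FPKM in DMSO morphants and at 19.5 and 14.8 in progesterone, and these 4 libraries overlapped each other but not the uninjected pair. After scaling, the morpholino DMSO libraries were the lowest 2 of 6, at 19.2 and 17.7. The uninjected pair stood at 25.9 and 25, and the progesterone pair, at 21.7 and 26.2, overlapped it. Wwtr1 (ENSDARG00000067719) stood at 8.32 and 7.80 FPKM in uninjected cells, at 7.74 and 5.65 in DMSO morphants, and at 12.4 and 14.0 in progesterone. The progesterone libraries were the highest 2 of 6 both as deposited and after scaling, at 13.7 and 24.6 against 5.28 to 7.10 in the other 4.

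The balance of the coactivator mRNAs is given as a description, since both genes were chosen with their values known. The yap1 to wwtr1 ratio of FPKM, which is per length and free of library scaling, was 3.64 and 4.11 in uninjected cells, 3.01 and 3.35 in DMSO morphants, and 1.58 and 1.06 in progesterone. The 3 groups did not overlap, and the 2 coactivators were at nearly equal levels in the progesterone library of experiment 2. How often ratios of other gene pairs keep the groups apart was not tested, here or for amotl2a to amotl2b. Their sum was 38.6 and 39.9 FPKM in uninjected cells, 31.0 and 24.6 in DMSO morphants, and 31.9 and 28.8 in progesterone. Protein level, phosphorylation and nuclear entry of YAP and TAZ were not measured.

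**Figure D2:**
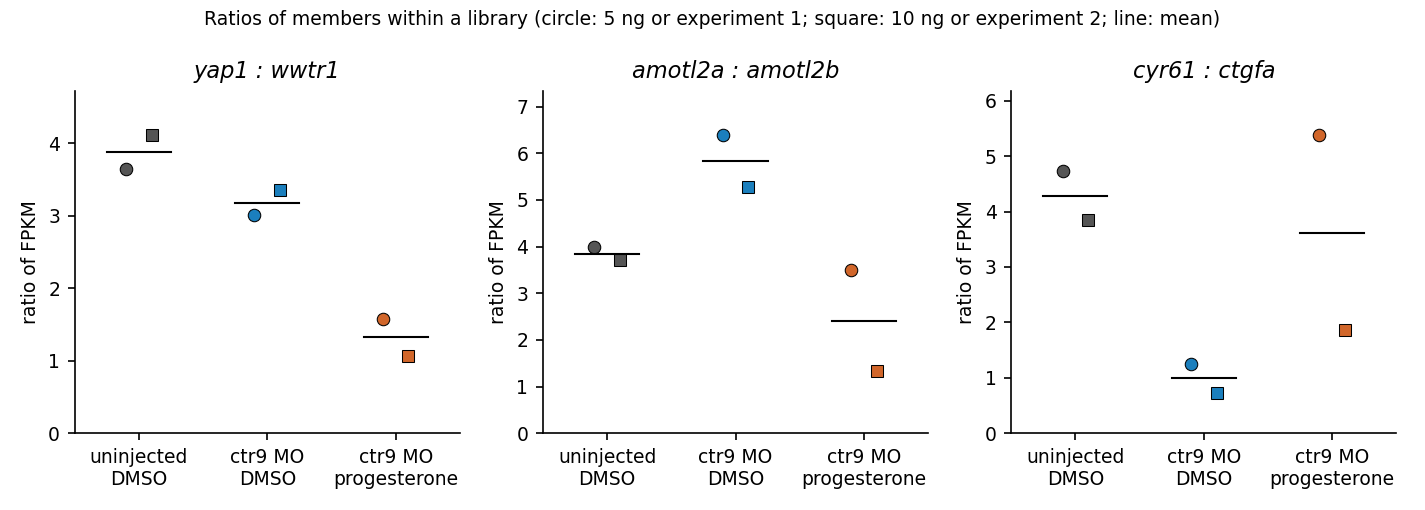
Ratio of FPKM within each library (vertical axes, from 0) for 3 pairs of members, by group; lines are means of 2 libraries. The yap1 to wwtr1 ratio runs from 3.64 and 4.11 in uninjected cells down to 1.58 and 1.06 in progesterone morphants.

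In uninjected cells the order of levels was amotl2a (35.8 ± 3.99 FPKM, SD, n = 2), yap1 (31.2 ± 1.23), cyr61 (10.5 ± 0.12), amotl2b (9.34 ± 1.5), wwtr1 (8.06 ± 0.37) and ctgfa. The libraries of cyr61 and amotl2b nearly met, at 10.5 and 10.4 FPKM, and those of amotl2b and wwtr1 overlapped, so neither pair of neighbours was set apart beyond its spread, while amotl2a (33.0 and 38.6) lay just above yap1 (30.3 and 32.1). Ctgfa, at 2.48 ± 0.34, was below every other detected member. With the morpholino in DMSO, ctgfa (11.7 ± 0.19) was level with cyr61 (11.5 ± 4.09) and above amotl2b (8.27 ± 0.39) and wwtr1 (6.69 ± 1.48).

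The first comparison, of the ctr9 morpholino with uninjected embryos in DMSO, is the one that ctgfa was chosen for. Its log2 fold change was 1.87 ± 0.35 (SE, n = 2 against 2), above that of 99.3% of tested genes. Amotl2a followed at 0.42 ± 0.36 and yap1 was the lowest member at -0.55 ± 0.31, with amotl2b at -0.15 ± 0.35 and wwtr1 at -0.25 ± 0.33. These differences are of log2(FPKM + 1), so the change of a low gene such as ctgfa is understated. Both morpholino libraries lay above both uninjected ones for 2 of the 6 fitted members, ctgfa and amotl2a, and below them for 2, yap1 and wwtr1, against 16.5% and 26.1% of all tested genes. Wwtr1 overlapped after scaling. At limma's adjusted p of at most 0.05, 0 of the 6 were called, with 0.0152% of all tested genes called. The rule used this contrast, and nothing is read from these counts.

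The second comparison sets progesterone morphants against DMSO morphants. Members had differences of both signs in it. Ctgfa and amotl2a had log2 fold changes of -1.12 ± 0.35 and -1.04 ± 0.36, and yap1 of -0.29 ± 0.31. Wwtr1 was at 0.89 ± 0.33, cyr61 at 0.42 ± 0.44 and amotl2b at 0.33 ± 0.35. Against the median of all tested genes, ctgfa was at -0.54, amotl2a at -0.46 and yap1 at 0.30, with wwtr1 at 1.47, above 96.1% of tested genes. The value of ctgfa against that median was -0.01 when the experiment 1 progesterone library was left out and -1.04 when the experiment 2 one was. After scaling, ctgfa was at -0.52 ± 0.42 and amotl2a at -0.39 ± 0.20, and yap1 changed sign, to 0.36 ± 0.22. Within experiment 1 the ratio of progesterone to DMSO was 0.349 for ctgfa and 1.60 for wwtr1, and within experiment 2 it was 0.488 and 2.47. After scaling these ratios were 0.471 and 2.15 in experiment 1, and 0.921 and 4.67 in experiment 2, so that ctgfa was nearly level between the treatments in experiment 2.

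Both progesterone libraries lay above both DMSO ones for 2 of the 6 members, wwtr1 and amotl2b, where 6.86% of all tested genes did so, and below them for 2, ctgfa and amotl2a, where 44.5% did so. After scaling these counts were 4, with cyr61 and yap1 added, and 1, amotl2a, beside 20.1% and 24.3% of all tested genes. At the adjusted threshold 0 of the 6 were called, with 0% of all tested genes called by limma (0 genes, against 247 higher and 2609 lower at an unadjusted p under 0.05). With 1 library left out the difference of amotl2a ran from -1.44 to -0.64, lowest without the progesterone library of experiment 1. These libraries were also in view when the members were chosen, and nothing is read from the counts.

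The third comparison, of the morpholino in progesterone with uninjected cells in DMSO, shares libraries with both others, so its values are only set beside theirs. Ctgfa was at 0.75 ± 0.35 on the log2 scale, wwtr1 at 0.64 ± 0.33 and cyr61 at 0.50 ± 0.44, with amotl2b at 0.18 ± 0.35. Yap1 was at -0.83 ± 0.31 and amotl2a at -0.62 ± 0.36. After scaling, yap1 was at -0.09 ± 0.22 and amotl2a turned to 0.13 ± 0.20, while ctgfa was at 1.38 ± 0.42, wwtr1 at 1.36 ± 0.35 and cyr61 at 1.22 ± 0.29. The groups did not overlap for 3 members that were higher (ctgfa, cyr61 and wwtr1) and 2 that were lower (yap1 and amotl2a), beside 5.94% and 53.0% of all tested genes. After scaling there were 4 and 0, beside 21.4% and 27.0%. Of the 6, 0 were called, with 0.0152% of all tested genes called. Without the progesterone library of experiment 1, amotl2a was at -1.02 and yap1 at -1.02. Without that library the difference of cyr61 was 0.02, and without that of experiment 2 the difference of amotl2b was -0.08.

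**Figure D3:**
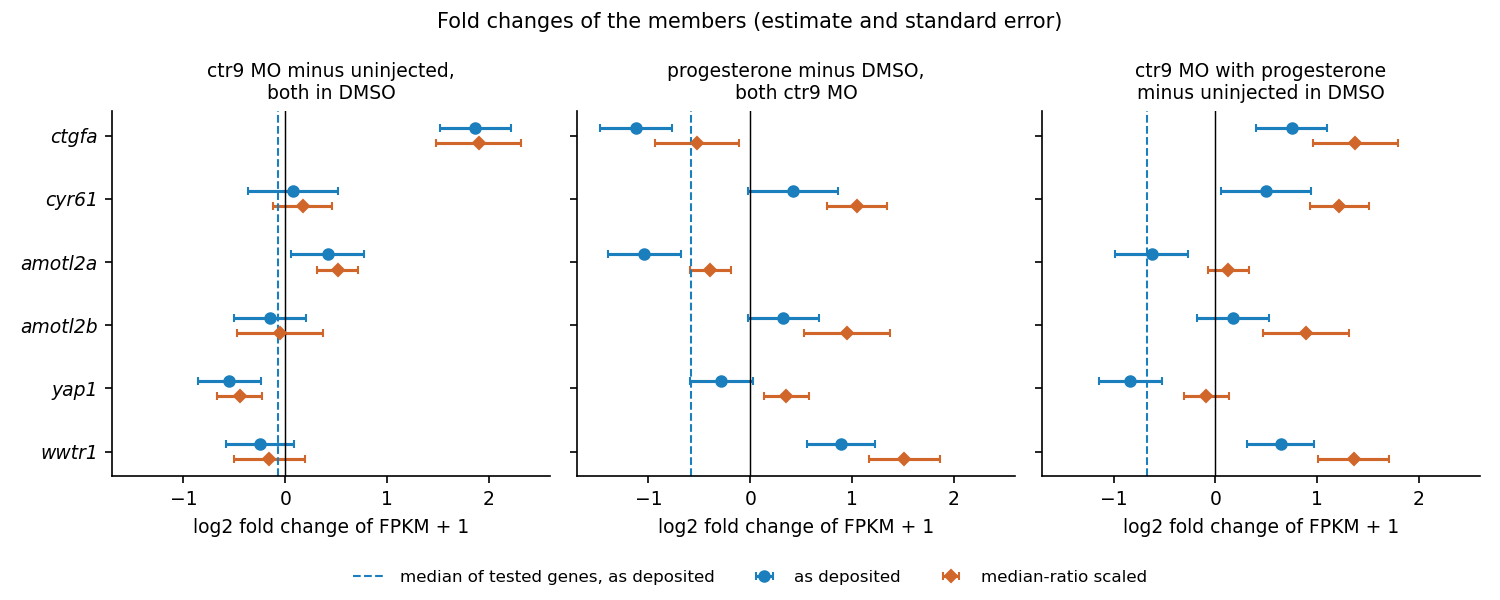
Log2 fold changes of FPKM + 1 (horizontal axes) of the 6 detected members in 3 comparisons, with bars of 1 standard error, as deposited (circles) and after median-ratio scaling (diamonds); the dashed line is the median of the 13155 tested genes as deposited. In the second comparison ctgfa is at -1.12 and wwtr1 at 0.89, and yap1 lies on either side of 0 with the scale used.

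The rest of the pathway was read from 5 lists of genes: Hippo kinases and upstream regulators, the other angiomotins, TEAD factors with their Vgll cofactors, YAP and TEAD target genes known from mammalian cells, and the other CCN genes. They matched 69 entries, of which 43 were tested. At an adjusted p of at most 0.05, limma called 0 of the 43 in each of the 3 comparisons. Of all tested genes it called 0.0152%, 0% and 0.0152%, in that order, so nothing is read from the 0 of 43. At an unadjusted p under 0.05, the morpholino comparison gave 1 higher and 3 lower of the 43, beside 1.45% higher and 2.67% lower of all tested genes. The progesterone comparison gave 1 and 1, beside 1.88% and 19.8%. Its 1 higher gene, dock5, reached a mean of 1 FPKM only through its progesterone libraries. After scaling the progesterone comparison gave 4 and 0, dock5 among the 4, beside 7.45% and 9.49%. The third comparison gave 1 and 4, beside 1.77% and 23.0%, and after scaling 7 and 1, beside 7.42% and 8.78%.

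Among the target genes, 22 entries were matched and 11 tested. The best known mammalian target beside those above, ANKRD1, had little signal: ankrd1a was at most 0.120 FPKM in any library and ankrd1b was listed at 0 in all 6. With the morpholino in DMSO the 11 genes had a median log2 fold change of -0.45, against -0.07 over all tested genes, and 3 of 11 lay above that median. The -0.45 is the value of dock5, which passed the filter only through its progesterone libraries. The list's median relative to all genes, -0.37, was -0.15 without the DMSO morphant library of experiment 1, -0.22 without the 10 ng uninjected library, -0.17 in a fit of the 2 groups alone, -0.13 with a pseudocount of 5 and -0.61 with one of 0.1. F3b, one of the zebrafish tissue factor genes, stood at 25.8 and 31.0 FPKM against 48.7 and 49.4 (-0.77 ± 0.28, unadjusted p = 0.0327, limma adjusted p = 1). The paralogues gadd45aa and gadd45ab, growth arrest genes that also answer to p53 in mammals, had differences of opposite sign. Gadd45aa stood at 2.05 and 5.15 FPKM against 0 and 0.386 (1.88 ± 0.49, unadjusted p = 0.00788, limma adjusted p = 1). Gadd45ab had 1.51 and 1.08 FPKM against 5.17 and 4.17 (-1.31 ± 0.41, unadjusted p = 0.0166, limma adjusted p = 1). Gadd45ab reached a mean of 1 FPKM only through the uninjected libraries, and gadd45aa only through the injected groups. Asap1b, a GTPase activator of Arf proteins, had a log2 fold change of -0.61 ± 0.35.

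With progesterone the same 11 targets had a median log2 fold change of -0.08, against -0.58 over all tested genes, and 9 of 11 lay above that median. Dock5, among these 9, passed the filter only through its progesterone libraries. The list's median relative to all genes, 0.50, was 0.78 without the progesterone library of experiment 1, 0.24 with a pseudocount of 5 and -0.05 with no filter. Dock5, an exchange factor of Rac, stood at 2.17 and 2.91 FPKM against 0.428 and 0.743 in morpholino DMSO cells (1.16 ± 0.43, unadjusted p = 0.0352, limma adjusted p = 0.206). F3b stood at 28.4 and 24.8 FPKM (-0.09 ± 0.28). Gadd45ab was at 0.170 and 0.215 FPKM (-0.94 ± 0.41 against DMSO, limma adjusted p = 0.243) and gadd45aa at 6.46 and 4.82 (0.61 ± 0.49). Asap1a, paralogue of asap1b, was at -0.68 ± 0.39. Set against uninjected cells gadd45ab and gadd45aa had limma adjusted p of 0.102 and 0.111, the smallest of the lists. Both passed the filter only through the groups where they were high, so these values are no support.

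TEAD factors carry YAP and TAZ to DNA. Of the 6 TEAD and Vgll genes tested, 0 passed an unadjusted p of 0.05 with the morpholino or with progesterone as deposited. Of all tested genes, 1.45% were higher and 2.67% lower at that p with the morpholino, and 1.88% and 19.8% with progesterone. Differences between paralogues were not tested. Tead1a stood at 18.1 and 18.3 FPKM in uninjected cells, at 30.7 and 26.0 in DMSO morphants, and at 10.8 and 20.7 in progesterone. As deposited it was highest in the same libraries as ctgfa, with a log2 fold change of 0.61 ± 0.38 with the morpholino (limma adjusted p = 1) and of -0.87 ± 0.38 with progesterone (limma adjusted p = 0.246), or -0.22 after scaling. Tead3b had 30.3 and 27.3 FPKM, then 22.0 and 11.6, then 20.2 and 13.0 in the same order of groups, as deposited below uninjected cells in all 4 morpholino libraries (-0.81 ± 0.41 in DMSO, limma adjusted p = 1). Tead1b and tead3a were lower genes, between 2.80 and 9.94 FPKM. In progesterone against DMSO they were at 0.55 ± 0.36 and 0.70 ± 0.45, and at 1.11 and 1.30 after scaling (unadjusted p = 0.0378 and 0.0129, limma adjusted p = 0.266 and 0.2). Vgll4b, of a family of cofactors that compete with YAP for TEAD, had 43.6 and 9.55 FPKM in progesterone morphants and between 15.3 and 26.8 elsewhere, while its paralogue vgll4a stood between 1.91 and 4.37.

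Upstream, amot, the third angiomotin gene detected, stood at 24.0 and 28.0 FPKM in uninjected cells, at 13.6 and 14.8 in DMSO morphants, and at 13.3 and 17.0 in progesterone. As deposited the uninjected libraries were above the other 4, with a log2 fold change of -0.83 ± 0.31 with the morpholino (unadjusted p = 0.0348, limma adjusted p = 1), the reverse of amotl2a in the same libraries. After scaling that difference was -0.72 (unadjusted p = 0.0966), and the progesterone library of experiment 2, at 29.9, was the highest of the 6, with the uninjected pair at 20.5 and 21.8. The 25 tested Hippo kinases and regulators had a median log2 fold change of -0.03 with the morpholino and of -0.56 with progesterone, beside medians of -0.07 and -0.58 over all tested genes. Relative to all genes the list was at 0.02 with progesterone, and at 0.27 without the progesterone library of experiment 1. With the morpholino, 0 of the 25 passed an unadjusted p of 0.05, beside 1.45% higher and 2.67% lower of all tested genes. The smallest p of the list were those of wtip (0.57 ± 0.38), fat1a (0.35 ± 0.29), WWC1 (0.39 ± 0.31) and frmd6 (-0.36 ± 0.32). The kinase genes lats1 and lats2 were at -0.00 ± 0.39 and -0.24 ± 0.38. With progesterone, csnk1db, which encodes a casein kinase, had 14.4 and 11.9 FPKM against 22.3 and 23.5 (-0.77 ± 0.30, unadjusted p = 0.04, limma adjusted p = 0.214) and was at -0.13 after scaling. Mob1ba, a cofactor of Lats kinases (-0.74 ± 0.33), fbxw11a, a ubiquitin ligase subunit that targets YAP in mammals (-0.90 ± 0.40), and fat1a (-0.56 ± 0.29) followed it, with limma adjusted p from 0.249 to 0.291. After scaling, mob1ba was at -0.15, fbxw11a at -0.41 and fat1a, with the sign turned, at 0.09. Against uninjected cells, taok2a (-0.72 ± 0.33) and wwc3 (-0.70 ± 0.37) were also among those with the smallest p, and were at -0.02 and -0.13 after scaling. Of the other CCN genes, cyr61l2 alone was tested, between 1.55 and 3.30 FPKM, with a log2 fold change of -0.17 ± 0.38 with the morpholino and -0.40 ± 0.38 with progesterone.

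**Figure D4:**
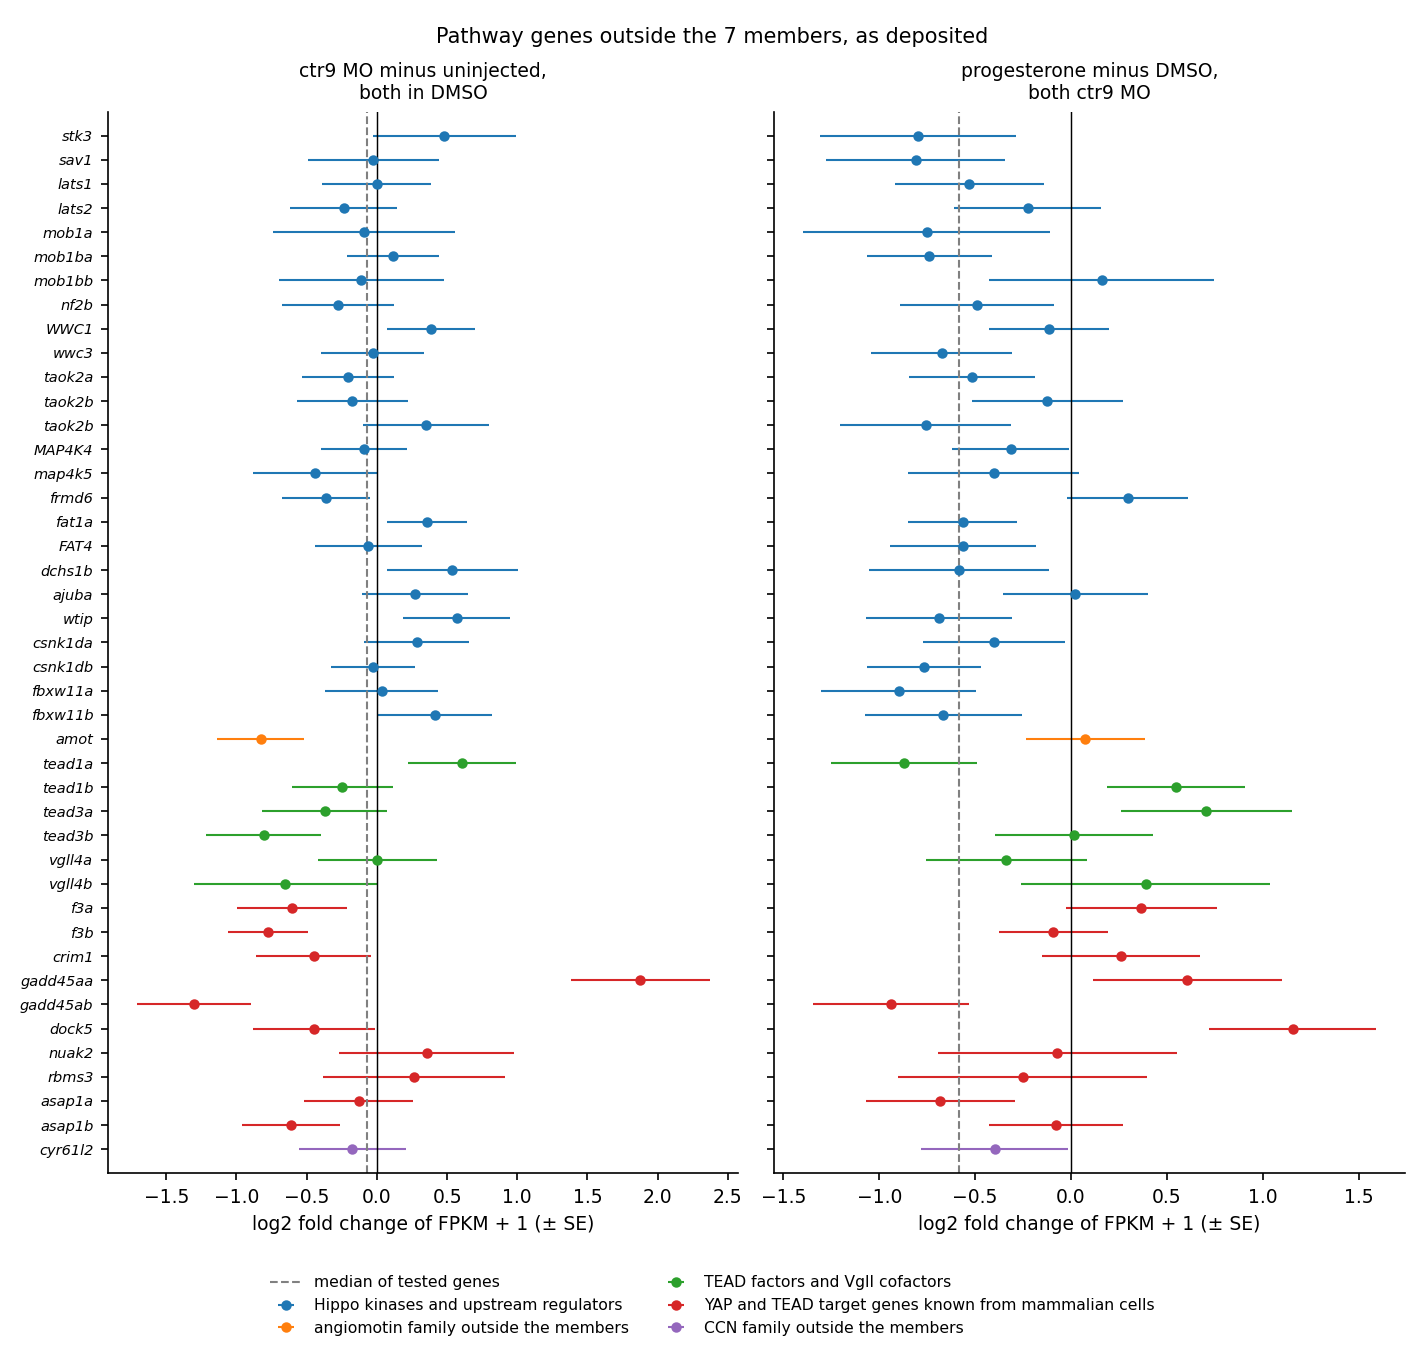
Log2 fold changes of FPKM + 1 (horizontal axes, with bars of 1 standard error) of the 43 tested pathway genes outside the 7 members, coloured by list, in the morpholino and the progesterone comparisons as deposited; the dashed line is the median of all tested genes. Gadd45aa at 1.88 and gadd45ab at -1.31 lie at the ends of the left panel, and dock5 at 1.16 is furthest right in the right panel. Dock5 reached a mean of 1 FPKM only through its progesterone libraries. Gadd45aa reached it only through the injected groups, and gadd45ab only through the uninjected libraries.

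The 8 tested genes whose levels followed ctgfa most closely over the 6 libraries were found by the root mean square difference of log2(FPKM + 1) after centring each gene on its own mean. They were si:dkey-264b2.3 (0.21), zgc:173711 (0.25), si:ch211-272h9.1 (0.29), EXO5 (0.30), gdf6a (0.31), bmb (0.31), irx7 (0.32) and lct (0.32). Si:dkey-264b2.3, zgc:173711, si:ch211-272h9.1 and lct reached a mean of 1 FPKM only through the DMSO morphants. In the other libraries they were at most 1.53 FPKM. All 8 were picked for likeness to ctgfa, so their shared pattern is no support. Gdf6a, a ligand of the BMP family, stood at 2.94 and 2.51 FPKM in uninjected cells, at 6.59 and 11.2 in DMSO morphants, and at 4.28 and 5.37 in progesterone. Irx7, an Iroquois homeobox gene, had 8.21 and 8.16 FPKM, then 19.7 and 20.5, then 13.0 and 14.0, in the same order. After scaling, lct had rank 22 and the others still held the first 7 ranks. Of the other members, amotl2a was the nearest to ctgfa, at 0.76 and rank 1474 of 13155, and yap1 the furthest, at 1.03 and rank 7742. The libraries of a group share these shifts, and the ranking carries no test.

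**Figure D5:**
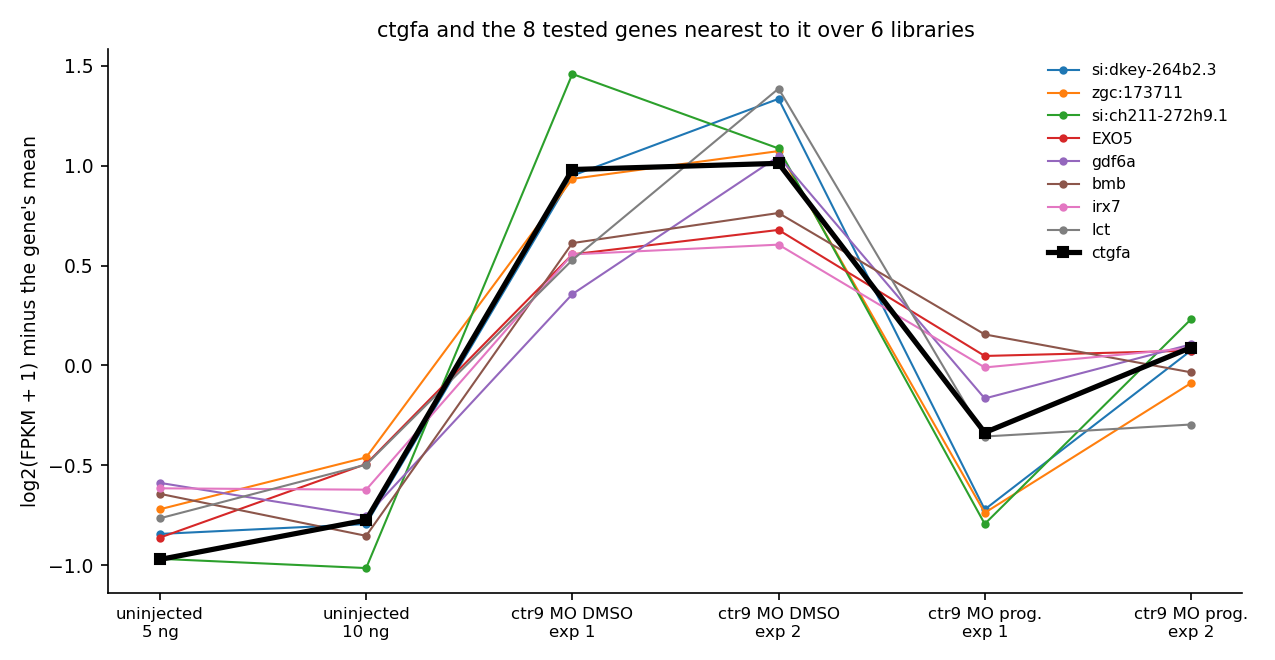
Log2(FPKM + 1) minus each gene's mean over 6 libraries (vertical axis) for ctgfa (black) and the 8 tested genes nearest to it, by library. Ctgfa and the 8 others are all highest in the 2 DMSO morphant libraries, which their choice by likeness to ctgfa fixed in advance.

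Because ctgfa is known from the notochord and floor plate, markers of both were read in the same libraries. Of the notochord list, 15 entries were matched, 6 were tested and 4 were at 1 FPKM or more in all 6 libraries. Its summed level was 50.9 and 53.3 FPKM in uninjected cells, 69.5 and 142.6 in DMSO morphants, and 41.1 and 65.0 in progesterone. After scaling, the progesterone library of experiment 2, at 114.7, lay between the DMSO morphant libraries at 57.2 and 133.2. Emilin3a, a matrix gene of the notochord, had 5.17 and 0.556 FPKM, then 19.0 and 64.4, then 2.79 and 2.18, in that order. Col2a1a, a fibrillar collagen gene, had 10.4 and 13.4, then 18.2 and 22.6, then 9.15 and 16.2. Col8a1a and chd were also highest in DMSO morphants, and chd reached a mean of 1 FPKM only through them. Krt18 had 19.2 and 19.3, then 13.2 and 20.2, then 8.75 and 29.9. Plod1a had 10.3 and 13.1, then 10.9 and 17.3, then 16.7 and 12.3, and both overlapped between groups. Emilin3a alone gave 64.4 of the 142.6, and krt18 was the largest part of the progesterone sum of experiment 2. Among defining markers, foxa2 was listed at 0 in all 6 libraries, noto (named flh in the table) was at most 0.134 FPKM, ntla at most 1.74 and shha at most 0.914. Of the 11 floor plate entries, 3 were tested, and the summed level of the list ran from 24.9 to 51.1 FPKM with overlap of all 3 groups. The epidermal list summed to 142.1 and 144.6, to 111.9 and 197.9, and to 73.2 and 70.4 FPKM in the same order, and 9 of its 17 entries were tested. Its genes differed in direction. Krt8 had 100.2 and 102.4, then 61.1 and 51.0, then 47.3 and 36.6. Krt5 had 4.42 and 8.22, then 10.7 and 27.0, then 4.28 and 3.70, and cyt1l was also highest in DMSO morphants. The notochord and epidermal sums were higher in the DMSO morphant library of experiment 2 than in that of experiment 1. Ctgfa was at 11.8 and 11.6 FPKM in these libraries, and its relation to the sums was not tested. The neuronal list, with 9 of 12 entries tested, summed to 61.1 and 84.0 FPKM, to 118.4 and 96.9, and to 18.5 and 12.5, highest in DMSO morphants as ctgfa and amotl2a were. With progesterone the sums were below those of uninjected cells, also after scaling (20.5 and 22.0 against 52.1 and 65.5), while ctgfa was above uninjected cells. Genes of the neuronal list were not all alike. Elavl3, neurod4, stmn1b, nhlh2, dla and dlb were highest in DMSO morphants. Elavl4 was highest in uninjected cells, at 3.10 and 1.69 against 1.42 and 1.67 in DMSO morphants. Nhlh2 reached a mean of 1 FPKM only through the DMSO morphants, and elavl4 only through the uninjected libraries. Tubb5 and neurog1 overlapped between DMSO morphants and uninjected cells. The otic list, with 6 of 13 tested, summed to 65.0 and 56.4, to 33.2 and 26.1, and to 23.4 and 18.6, highest in uninjected cells as yap1 was. After scaling the sums of the morphant groups overlapped, at 27.3 and 24.4 in DMSO and at 25.9 and 32.8 in progesterone. From DMSO to progesterone, oc90 rose (7.12 and 5.02, then 16.9 and 12.7) and stm fell (7.28 and 8.01, then 0.881 and 0.380). Pax2a in DMSO morphants overlapped uninjected cells. The endothelial list, with 2 of 15 tested, had the same order of groups as the deposited otic sums. It summed to 52.4 and 70.0, then 41.7 and 27.3, then 15.6 and 3.85. Fli1a gave most of each sum, at 45.3 and 59.5, then 35.2 and 22.4, then 12.8 and 3.10. The other tested gene, tek, overlapped between groups, at 0.890 and 1.83, then 1.68 and 1.17, then 2.70 and 0.621. Kdrl and cdh5 were at most 0.574 and 0.363 FPKM in any library. The part of these cell types in the levels of ctgfa and the other members was not tested.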

How the data were processed

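Total RNA of sorted sox10-positive zebrafish cells was depleted of ribosomal RNA and sequenced as paired reads, per the labels' protocols. The authors deposited 1 table of FPKM for 33827 entries in 6 library columns, per the file header left at the foot of the table (1 row, removed), and 92 of the entries are ERCC spike-ins. Cutadapt, TopHat2 2.0.11, Cufflinks 2.2.1 and the builds Zv9 and hg19 are named, without roles, per the submitters' processing notes, and no annotation version is named. Reads shared by paralogues could be split by that counting, and strand use is not given. Columns were assigned by name. Those of uninjected embryos carry no experiment number, so no pairing could include them.

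The 13155 genes whose mean FPKM reached 1, among them 6 of the 7 members, were fitted with limma 3.58.1 in R 4.3.3 (lmFit, eBayes with trend) on log2(FPKM + 1), as 3 group means (residual degrees of freedom: 3), with Benjamini-Hochberg adjustment over all tested genes at 0.05. An exact two-sided permutation test of 2 against 2 libraries cannot give a p below 0.333. Median-ratio size factors used genes above 0 in all libraries. The code was tested on simulated data. Members, lists and tests were chosen with earlier results of these data known. The rule for named genes was: all members, called pathway genes, the 4 of each list with the smallest p in each comparison and the 8 nearest to ctgfa. Lats1, lats2, ankrd1a and ankrd1b were chosen after their values were seen. Pathway symbols were matched to names in the table, or to the current symbol of the gene identifier. Alternatives were another pseudocount, filter, scaling, group set or variance prior, leaving out each library, and the experiment number as a block.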

Additional observations from a re-analysis of the deposited data

How the results depend on the processing

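Of 258 alternative values of the 18 member differences, 230 moved by less than 1 SD between libraries and 28 moved by more. Of 430 alternative values of the pathway list counts at an unadjusted p under 0.05, 330 equalled the main count or were close to it, and 100 moved. The members were chosen with these values known. Where the libraries of 2 groups did not overlap, leaving out 1 library or changing the pseudocount could not turn the sign. The counts of signs that follow are therefore no support. The morpholino difference of ctgfa was positive in 14 of 14 alternatives, between 1.16 (pseudocount 5) and 2.2 (pseudocount 0.1), and from 1.77 to 1.97 with any 1 library left out. The progesterone difference of ctgfa was negative in 15 of 15, between -1.33 and -0.52 (relative to all genes, between -1.08 and -0.01), and that of wwtr1 positive in 15 of 15, between 0.64 and 1.51. That of cyr61 was -0.06 without the progesterone library of experiment 1, and its morpholino difference ran from -0.26 to 0.42 with single libraries left out. Of all tested genes, limma called 2, 0 and 2 in the 3 comparisons, in that order, and 191, 247 and 233 higher and 351, 2609 and 3030 lower passed at an unadjusted p under 0.05. A pseudocount of 0.1 gave 0 calls in the morpholino comparison and the joint one. No filter gave 87, 20 and 80, and a mean FPKM of at least 5 gave 1 in the former and 28 in the latter. Scaling gave 1 with progesterone and 12 in the joint comparison, and 21 and 80 without the progesterone library of experiment 2. Fits of 2 groups gave 1 and 0 in the same order. With 1 library left out the counts ran from 0 to 3, from 0 to 4266 and from 0 to 4552, the highest without the progesterone library of experiment 1, whose lone partner is assumed to vary like the other groups. In those 2 fits members and pathway genes were among the genes called. Both fits rest on 1 progesterone library, so nothing is read from their calls. Without the progesterone library of experiment 2 the counts were 24 and 62. The cause was not tested. In every other alternative run, 0 pathway genes and 0 members were called. With the experiment number as a replicate block the progesterone comparison called 3 genes and 0 pathway genes. Experiments 1 and 2 deviated together with a correlation of 0.08 across genes over 2 pairs. A low value over so few pairs cannot show that they were unpaired, and the main fit did not pair them. Depth is unknown, so no counting error can be given for low genes such as ctgfa in uninjected cells.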
